A study of Mus musculus with 18 samples.

Results

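Quadriceps muscle of mice on a high-salt diet (HSD) was compared with quadriceps muscle of mice on the control diet (CON), gene by gene. The comparison took in every gene with a mean of at least 0.5 FPKM over the 6 quadriceps libraries, which kept 10834 of the 21899 genes listed. FPKM, the number of fragments scaled to the length of the gene and to the size of the library, is a level that can be compared between genes. Both groups were male wild-type C57BL/6 mice aged 18 weeks, with 3 libraries in each. HSD mice had eaten salt-enriched food and drunk saline for 12 weeks, whereas CON mice had received chow and tap water, and the age, sex, strain and genotype were shared. The study asked how such a diet alters gene expression in 3 metabolic tissues, of which muscle is described here. Nothing in the labels says whether littermates or cages were shared, so the p-values measure the spread between these libraries.

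Skeletal muscle is built of fibres that differ in the myosin heavy chain they express. Slow fibres hold Myh7 and oxidise fuel, whereas fast fibres hold Myh2, Myh1 or Myh4, with Myh4 marking the fastest and most glycolytic fibres that dominate the mouse quadriceps. When insulin signalling falls or glucocorticoids rise, FoxO transcription factors enter the nucleus and raise ubiquitin ligases such as Fbxo32 (atrogin-1) and Trim63 (MuRF1), which mark muscle protein for breakdown by the proteasome. Around the fibres lie fibroblasts, which make collagen, and resident macrophages, which present antigen and respond to interferon.

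The libraries held between 11185317 and 13311129 fragments, as recovered from the steps in the FPKM values. Markers of skeletal muscle fibres summed to between 67835 and 82015 FPKM in the 6 libraries, against at most 5476 FPKM in the liver libraries and 80.7 FPKM in the fat libraries of the same table. Among genes of other cells, 16 of 18 T and B cell markers had a mean under 0.5 FPKM. The same held for only 0 of 18 endothelial, 1 of 20 fibroblast and 1 of 15 pericyte and smooth muscle markers. Across the 10834 genes, r between libraries lay between 0.971 (CON16M with HS3M) and 0.987 (CON16M with CON72M), and no pair differed by as little as counting error. Values are given below in the order of the replicate numbers, CON16M, CON71M and CON72M for CON and HS2M, HS3M and HS5M for HSD. The gene lists used below were chosen with earlier results of these data known. Counts of their members past a threshold may partly reflect that choice and are no independent support.

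Between the diets, 35 genes differed at an adjusted p under 0.05 and a change of at least 2-fold, of which 11 rose (0.102% of the genes tested) and 24 fell (0.222%). The adjusted p is that of limma with Benjamini-Hochberg adjustment over all 10834 genes, and log2 fold changes are HSD minus CON after adding 0.5 to each FPKM, so that the change of genes at low levels comes out too small and some of them pass 2-fold only as a ratio of mean FPKM. Without the bound on the size of the change, 97 genes passed, 25 higher (0.231%) and 72 lower (0.665%) in HSD, and 1761 had an unadjusted p under 0.05. In all 97 genes the 3 HSD libraries lay on one side of the 3 CON libraries. Over all genes tested, every HSD library lay above every CON library in 728 genes (6.72%) and below in 1685 genes (15.6%), and the median log2 fold change was -0.06. A negative log2 fold change was found in 6586 genes (60.8%). With the replicate number as a block, the 35 and 97 became 54 and 286, and all 35 genes were among the 54. The labels do not say what this number marks and give no pairing of CON with HSD mice. Values with the block are therefore an alternative and call no gene. With median-ratio scaling of the libraries the 35 became 27, split 13 higher to 14 lower, and with quantile normalization 29, split 12 to 17, so that the excess of lower genes depended on the scaling.

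The counts also depended on single libraries. Without CON16M 13 genes differed at both thresholds, without CON72M 10, without HS3M 15, without HS5M 23, without CON71M 30 and without HS2M 61. At the adjusted p alone the corresponding counts were 13, 10, 15, 26, 35 and 205. Of the 35 genes, 8 passed the adjusted p whichever library was left out, namely Tpx2, Mss51, Aqp4, Tnfaip2, Kcng4, Casq2, Frzb and Myom3. HS2M lay closer to CON16M (r = 0.982) than to either HSD library.

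**Figure D1:**
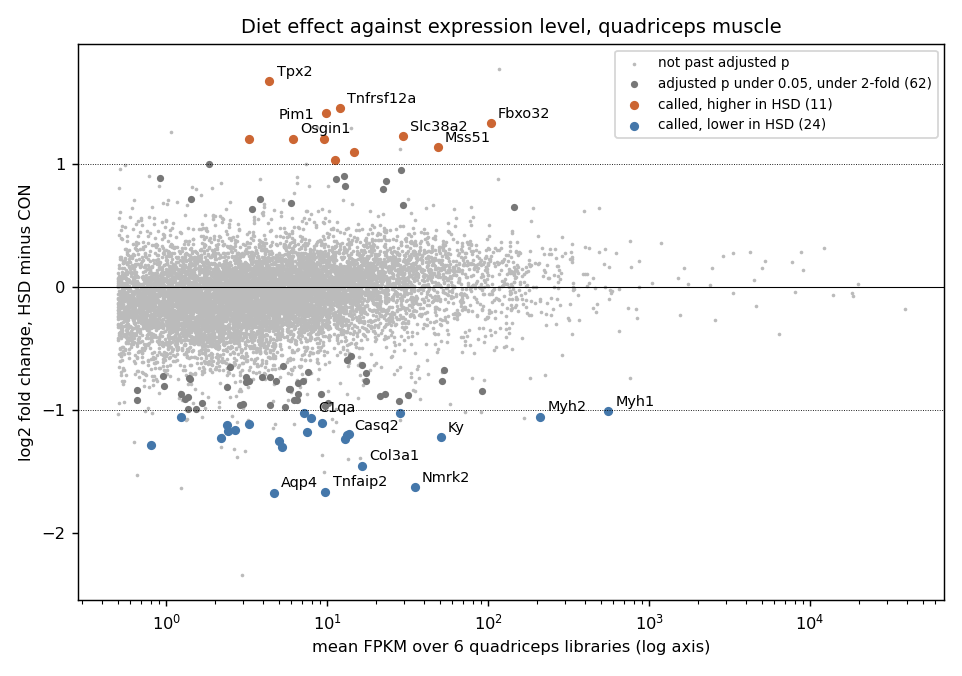
Log2 fold change (HSD minus CON) of each of 10834 genes against its mean FPKM over the 6 libraries, on a log axis. Orange and blue points are the 11 higher and 24 lower genes past both thresholds, dark grey points the 62 genes past the adjusted p alone, and the dotted lines mark a 2-fold change. Myh1 and Myh2 are the 2 most abundant called genes, far to the right, and most called genes lie below the line of no change.

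Among the 11 called higher genes, the largest log2 fold change was that of Tpx2 (chromosome 2, 152847964 to 152895321 of GRCm38), which encodes a spindle protein that activates Aurora kinase A. Tpx2 stood at 1.95, 2.11 and 1.45 FPKM in CON and 6.30, 7.43 and 7.07 FPKM in HSD. All 3 HSD libraries were well above the CON libraries, with a log2 fold change of 1.68 ± 0.14 (SE; adjusted p = 0.00288). It was the only one of 10 cell cycle genes tested to pass, and the list had a median of -0.09. Tnfrsf12a, the receptor of the cytokine TWEAK, stood at 6.13, 4.15 and 8.10 FPKM in CON and 13.4, 25.8 and 14.4 FPKM in HSD. HS3M was the highest library by far, and the groups did not overlap, with a log2 fold change of 1.45 ± 0.27 (SE; adjusted p = 0.0453). Pim1, a serine/threonine kinase induced by cytokines, had 5.52, 5.32 and 4.25 FPKM in CON and 11.4, 19.3 and 12.9 FPKM in HSD. Again the highest value was in HS3M, with a log2 fold change of 1.41 ± 0.19 (SE; adjusted p = 0.0191).

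Mss51, a mitochondrial protein enriched in fast muscle, measured 30.6, 28.3 and 32.1 FPKM in CON and 69.1, 67.8 and 64.6 FPKM in HSD. The HSD libraries differed from each other by less than their distance from CON, with a log2 fold change of 1.14 ± 0.11 (SE; adjusted p = 0.00644). Htra4, a secreted serine protease, stood at 1.79, 1.83 and 1.6 FPKM in CON and 3.06, 5.29 and 6.14 FPKM in HSD. HS2M was the lowest of the HSD group and still above all CON libraries, with a log2 fold change of 1.2 ± 0.21 (SE; adjusted p = 0.0394). Tmem100, a membrane protein of vessels and nerves, had 9.44, 8.51 and 8.96 FPKM in CON and 16, 28.5 and 17 FPKM in HSD. HS3M stood apart at the top, with a log2 fold change of 1.10 ± 0.20 (SE; adjusted p = 0.0444). Odf3l2, named for its likeness to a sperm tail protein, had 6.59, 7.92 and 7.02 FPKM in CON and 18.4, 12.7 and 14.9 FPKM in HSD. The groups were separate, with a log2 fold change of 1.03 ± 0.15 (SE; adjusted p = 0.0213). The exons of Htra4 overlap a gene on the other strand over 32.9% of their length and those of Pim1 over 14.5%, and how strand entered the authors' counting is not given in the sources used here.

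**Figure D2:**
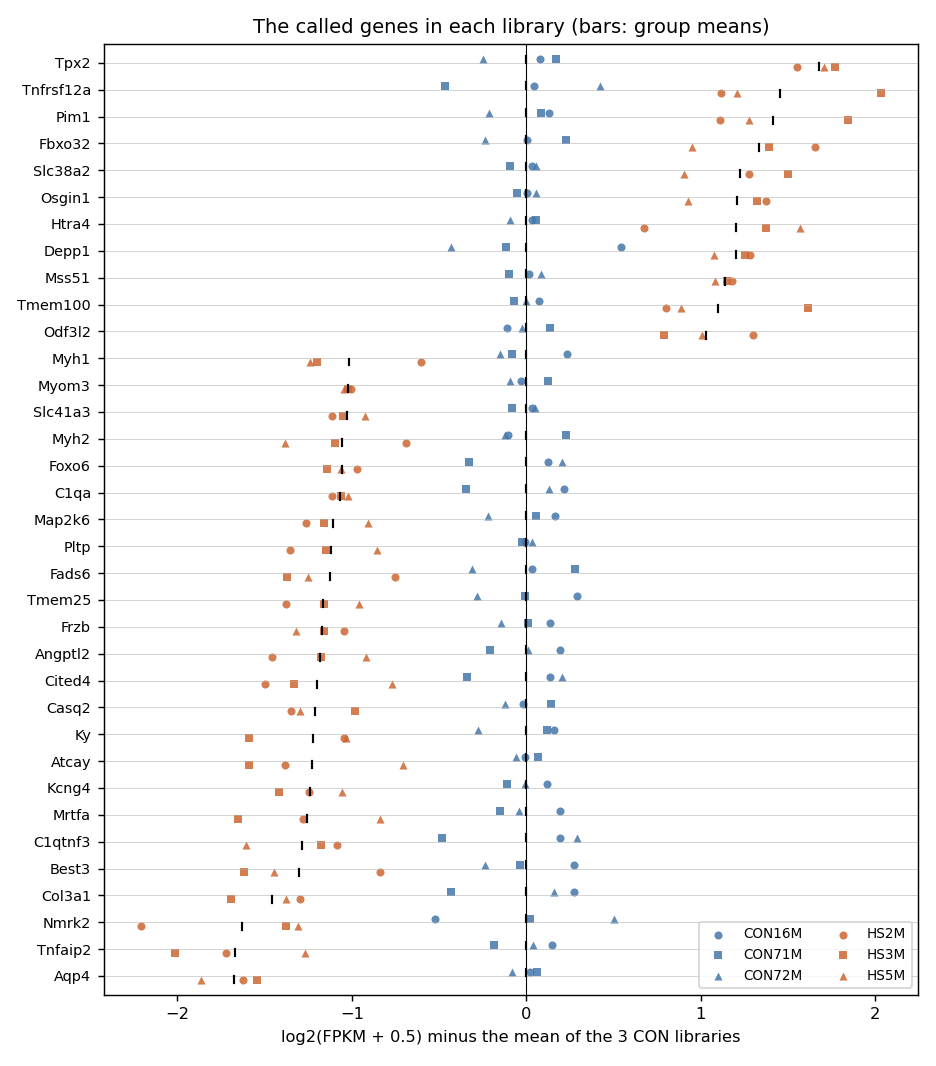
The 35 genes past both thresholds in each library, as log2(FPKM + 0.5) minus the mean of the 3 CON libraries. Blue symbols are CON and orange symbols HSD libraries, with 1 symbol shape per replicate number and black bars at group means. In every gene the 3 HSD libraries lie on one side of the 3 CON libraries.

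Genes of slow fibres and of the slower fast fibres were lower in HSD, while the fastest myosin took a larger share. All 11 slow-fibre contractile genes had a negative log2 fold change, with a median of -0.84, against 60.8% of all genes with a negative value. In 7 of the 11 (63.6%) the groups did not overlap. Such a downward separation was found in 15.6% of the tested genes. Taken per library, the list median was -0.55, 0.45 and 0.08 in CON and -1.21, -0.85 and -0.52 in HSD. CON16M thus lay within the HSD range. The FPKM of the list summed to 269.8, 570.1 and 428.7 in CON and 176.9, 213.1 and 266.3 in HSD. These sums were separate, but CON16M was only just higher than HS5M. Past the adjusted p was Casq2, the calsequestrin of cardiac and slow muscle (chromosome 3, 102086415 to 102146514), at 18.5, 20.7 and 17.2 FPKM in CON and 7.06, 9.26 and 7.34 FPKM in HSD. Every CON library was far above every HSD library, with a log2 fold change of -1.21 ± 0.14 (SE; adjusted p = 0.00911). Among the others, Tnni1, the slow troponin I, stood at 10.2, 21.0 and 16.3 FPKM in CON and 5.57, 6.52 and 8.67 FPKM in HSD. Its CON libraries were spread over a wide range, the lowest being CON16M, and the log2 fold change was -1.10 ± 0.24 (adjusted p = 0.0768, or 0.0191 with the replicate block). Myl3, a slow myosin light chain, had -1.02 ± 0.24 (adjusted p = 0.0894, or 0.0263 with the replicate block) and Myh7, the slow myosin heavy chain, -1.40 ± 0.34 (adjusted p = 0.0958). Tnnt1 and Myl2 overlapped between the groups, at -0.84 ± 0.26 (adjusted p = 0.151, or 0.0239 with the replicate block) and -0.76 ± 0.37 (adjusted p = 0.339, or 0.0310 with the replicate block). With the block, 6 of the 11 genes passed in place of 1.

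The fast myosin genes lie side by side on chromosome 11, with Myh2 from 67171027 to 67197517, Myh1 from 67200052 to 67224575 and Myh4 from 67238029 to 67260446. Myh1, the myosin of type IIx fibres, was at 865, 697 and 664 FPKM in CON and 484, 321 and 312 FPKM in HSD. Every HSD library was below every CON library, although HS2M was closest, with a log2 fold change of -1.01 ± 0.19 (SE; adjusted p = 0.0452). Myh2, the myosin of type IIa fibres, was at 262, 329.9 and 259 FPKM in CON and 175, 132 and 108 FPKM in HSD. HS5M was lowest and the groups were separate, with a log2 fold change of -1.06 ± 0.18 (SE; adjusted p = 0.0394). Each of the 2 genes passed in 1 of the 6 fits that left out 1 library. Myh4 was at 9954, 7434 and 8507 FPKM in CON and 11150.0, 7823 and 9630.5 FPKM in HSD, and the groups overlapped, with a log2 fold change of 0.14 ± 0.18 (SE; adjusted p = 0.749).

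As a share of the summed FPKM of Myh1, Myh2, Myh4 and Myh7, Myh4 made up 89.7%, 87.6% and 90.1% in CON and 94.3%, 94.5% and 95.7% in HSD. Myh1 made up 7.79%, 8.21% and 7.03% in CON and 4.09%, 3.88% and 3.10% in HSD. Myh2 made up 2.36%, 3.89% and 2.75% in CON and 1.48%, 1.59% and 1.07% in HSD. In each of these shares, and in that of Myh7 at 0.120%, 0.344% and 0.177% in CON and 0.0822%, 0.0457% and 0.0824% in HSD, the groups were separate. The exact 2-sided permutation p was 0.1 for each share, the smallest that 3 against 3 libraries can give, and 0.325 after adjustment over the 26 per-library values tested. The summed FPKM of the 4 myosins did not separate the groups (exact p = 0.8). Reads of myosin genes, which are close paralogs, may be split between them. The share of a myosin in whole muscle cannot tell apart fewer fibres of a type from less RNA per fibre.

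Over the 14 fast-fibre contractile genes the median was 0.15, with 9 higher and 5 lower and only Myh1 and Myh2 past the threshold. Actn3, the Z-disc protein of fast fibres, and Pvalb, the calcium buffer of fast fibres, were at 0.27 ± 0.15 (adjusted p = 0.395) and 0.28 ± 0.19 (adjusted p = 0.480). Acta1 and Ckm, the skeletal actin and the muscle creatine kinase, were at 0.03 ± 0.16 (adjusted p = 0.954) and 0.06 ± 0.13 (adjusted p = 0.865). Myoglobin (Mb), the oxygen store of oxidative fibres, stood at 809, 1113 and 920.0 FPKM in CON and 532, 663 and 505 FPKM in HSD. All HSD libraries were below the lowest CON library, and the log2 fold change was -0.74 ± 0.16 (adjusted p = 0.0758, or 0.0111 with the replicate block).

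**Figure D3:**
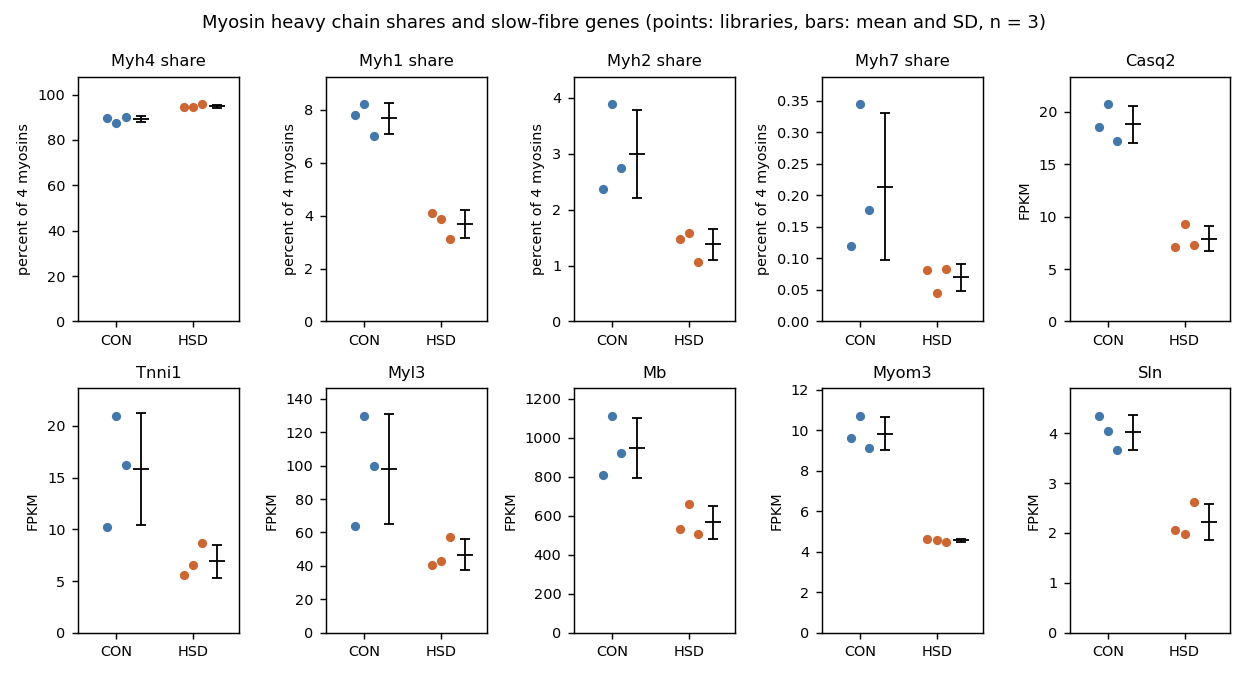
Shares of 4 myosin heavy chains (percent of their summed FPKM) and FPKM of Casq2, Tnni1, Myl3, Mb, Myom3 and Sln in each library. Points are libraries, bars the mean and SD of 3. Myh4 lies above and the other 9 values below the CON libraries in all 3 HSD libraries, with Myom3 nearly the same in the 3 HSD libraries.

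Sarcomere genes were lower somewhat more often than genes as a whole. Of 39 genes of the sarcomere scaffold, 29 (74.4%) had a negative log2 fold change, against 60.8% of all genes tested. Past the threshold, 3 fell and none rose, or 7 and none with the block, and the median was -0.23. Myom3, the M-band protein of slow and intermediate fibres, had 9.61, 10.7 and 9.15 FPKM in CON and 4.63, 4.58 and 4.50 FPKM in HSD. The HSD libraries were nearly equal and far below CON, with a log2 fold change of -1.02 ± 0.11 (SE; adjusted p = 0.00911). Ky, a peptidase-like protein needed for muscle growth and stability, had 78.8, 76.7 and 58.3 FPKM in CON and 34.0, 23.1 and 34.3 FPKM in HSD. HS3M was the lowest, with a log2 fold change of -1.22 ± 0.18 (SE; adjusted p = 0.0227), and the gene passed in 1 of the 6 fits without 1 library. Lmod3, an actin nucleator of the thin filament, fell with -0.67 ± 0.13 (adjusted p = 0.0452). Of 15 dystrophin complex genes, which tie the fibre to its matrix, none passed, or 2 with the block, with a median of -0.17 and Sspn (sarcospan) at -0.62 ± 0.13 (adjusted p = 0.0682, or 0.0306 with the replicate block). Actn2, the Z-disc actinin of all fibres, was at -0.50 ± 0.12 (adjusted p = 0.0847, or 0.0297 with the replicate block).

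Among 28 genes of excitation and calcium handling, Casq2 and Sln fell and the median was -0.17. Sln (sarcolipin), an inhibitor of the calcium pump, was at -0.74 ± 0.14 (adjusted p = 0.0452). Atp2a2, the slow calcium pump, was at -0.74 ± 0.19 (adjusted p = 0.110), lower in all 3 HSD libraries. Of 17 muscle ion channel genes, 2 fell, with a median of -0.24. Kcng4, a modulatory potassium channel subunit, had 19.8, 16.8 and 18.1 FPKM in CON and 7.36, 6.50 and 8.47 FPKM in HSD. All HSD values were below CON, with a log2 fold change of -1.24 ± 0.13 (SE; adjusted p = 0.00911). Best3, a bestrophin anion channel, had 9.24, 7.36 and 6.35 FPKM in CON and 4.01, 2.12 and 2.46 FPKM in HSD. HS2M was the highest of the HSD group and below all CON libraries, with a log2 fold change of -1.30 ± 0.21 (SE; adjusted p = 0.0315).

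No gene of the neuromuscular junction passed, with 14 tested, a median of -0.22 and Ache and Chrna1 at -0.49 ± 0.13 (adjusted p = 0.108) and -0.54 ± 0.14 (adjusted p = 0.110). The 10 tested genes of denervated and embryonic muscle had a median of -0.72, and none passed, or 2 with the block. Myh3, the embryonic myosin, had the largest negative change of all 10834 genes, at 7.55, 0.669 and 8.50 FPKM in CON and 0.397, 0.280 and 0.426 FPKM in HSD. The CON libraries themselves differed by more than an order of magnitude, with CON71M close to HSD, and the log2 fold change of -2.34 ± 0.63 (adjusted p = 0.116, or 0.0403 with the replicate block) did not pass without the block. Myh8, the perinatal myosin, was also low in CON71M and overlapped, at -1.64 ± 0.54 (adjusted p = 0.183). Without CON71M, 3 genes of this list passed. Among 27 myogenic regulators (median -0.07) Mrtfa, a coactivator of serum response factor, fell alone. Mrtfa stood at 8.33, 6.46 and 6.99 FPKM in CON and 2.68, 1.95 and 3.82 FPKM in HSD, and HS3M was lowest, with a log2 fold change of -1.26 ± 0.20 (SE; adjusted p = 0.0275).

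Genes that FoxO factors are known to raise were higher in HSD. Of 28 FoxO target genes tested, 24 had a positive log2 fold change, 4 rose and none fell, and the median was 0.27 against -0.06 over all genes. In 13 of the 28 (46.4%) every HSD library was above every CON library, whereas 6.72% of the tested genes showed this. The median over the list, taken per library relative to the CON mean, was 0.04, 0.06 and -0.11 in CON and 0.42, 0.36 and 0.09 in HSD, so that HS5M was the HSD library nearest to CON. With the block 7 passed in place of 4, whereas 1 passed without CON16M, CON71M or HS3M and none without CON72M. Fbxo32, the ubiquitin ligase atrogin-1 (chromosome 15, 58175879 to 58214932), stood at 58.0, 67.9 and 49.1 FPKM in CON and 183, 152 and 112 FPKM in HSD. Its levels in HSD were 2.56 times CON on average, the groups were separate, and HS2M was highest, with a log2 fold change of 1.33 ± 0.19 (SE; adjusted p = 0.0213). Slc38a2, the amino acid transporter SNAT2, stood at 17.7, 16.1 and 18 FPKM in CON and 42.4, 49.7 and 32.6 FPKM in HSD. HS3M was highest, with a log2 fold change of 1.23 ± 0.16 (SE; adjusted p = 0.0157). Depp1, a FoxO-induced regulator of autophagy, stood at 8.22, 5.04 and 3.95 FPKM in CON and 14.1, 13.8 and 12.1 FPKM in HSD. The HSD libraries were close to each other and the CON libraries varied, with a log2 fold change of 1.2 ± 0.22 (SE; adjusted p = 0.0444). Eif4ebp1, the inhibitor of cap-dependent translation that mTOR switches off, rose with 0.80 ± 0.14 (adjusted p = 0.0368).

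Further genes of this list were higher without passing. Pdk4, the kinase that shuts pyruvate dehydrogenase, had the largest positive change of all genes tested, at 72.0, 50.5 and 29.7 FPKM in CON and 243, 221 and 81.9 FPKM in HSD. HS5M lay just above the highest CON library while HS2M and HS3M were far above, and the log2 fold change was 1.77 ± 0.41 (adjusted p = 0.0873, or 0.00219 with the replicate block). Trim63 (MuRF1), the other classical atrophy ligase, stood at 82.4, 79.9 and 75.8 FPKM in CON and 166, 176 and 107 FPKM in HSD. The CON libraries were nearly equal and all HSD libraries higher, with 0.88 ± 0.18 (adjusted p = 0.0654, or 0.0199 with the replicate block). Of the factors themselves, Foxo1 and Foxo3 were at 0.27 ± 0.14 (adjusted p = 0.357) and 0.10 ± 0.20 (adjusted p = 0.842), while Foxo6, a less common member, fell. Foxo6 was low, at 2.05, 1.36 and 2.19 FPKM in CON and 0.689, 0.560 and 0.617 FPKM in HSD, and the groups were separate, with a log2 fold change of -1.06 ± 0.17 (SE; adjusted p = 0.0289). Over the 29 muscle atrophy genes the median was 0.19, with Fbxo32 and Eif4ebp1 up and Foxo6 down. Mstn (myostatin), the secreted brake on muscle growth, was at -0.03 ± 0.16 (adjusted p = 0.948). Ucp3, a mitochondrial carrier raised by fasting, stood at 24.4, 13.4 and 14.1 FPKM in CON and 46.3, 50.5 and 21.3 FPKM in HSD, and overlapped, with 1.12 ± 0.32 (adjusted p = 0.136, or 0.0395 with the replicate block).

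Among 24 genes that respond to glucocorticoids the median was 0.25, with Fbxo32 up and Sgk1 down. By library the median was 0.05, 0.07 and -0.13 in CON and 0.39, 0.32 and 0.0018 in HSD, so that HS5M lay within the range of CON. The list shares members with the FoxO list, among them Fbxo32, Trim63 and Pdk4, so its median is no separate observation. Sgk1, the serum- and glucocorticoid-regulated kinase that promotes sodium uptake, fell with -0.77 ± 0.13 (adjusted p = 0.0334). Fkbp5, a chaperone of the glucocorticoid receptor and a sensitive target of it, was at 4.37, 3.94 and 3.64 FPKM in CON and 7.24, 6.35 and 5.49 FPKM in HSD. All HSD libraries were above CON, with 0.61 ± 0.13 (adjusted p = 0.0758, or 0.0313 with the replicate block). With the block, 4 genes of the list were higher and 1 lower.

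The upstream sequences of Sgk1 and Trim63 are shown because both hold the half-sites of a glucocorticoid response element, while Sgk1 fell and Trim63 was higher in every HSD library. The letters searched were AGAACANNNTGTTC on both strands in the 250 bases before each start in RefSeq (GRCm38.p6), and 0.0304% of 32851 promoters held them. Capitals mark the match, which in Sgk1 reads on both strands (chr10:21993651-21993765, plus strand) and in Trim63 lies beside a FoxO match, both on the strand opposite to the gene (chr4:134314870-134314975, plus strand).
Sgk1: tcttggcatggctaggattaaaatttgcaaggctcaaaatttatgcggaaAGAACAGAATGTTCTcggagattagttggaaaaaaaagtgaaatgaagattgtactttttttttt
Trim63: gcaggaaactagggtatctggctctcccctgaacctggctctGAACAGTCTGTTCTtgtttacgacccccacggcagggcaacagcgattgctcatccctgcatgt
Pim1, which rose, held the FoxO letters GTAAACA, which were in 3.17% of promoters, in the stretch at chr17:29492965-29493071, plus strand.
Pim1: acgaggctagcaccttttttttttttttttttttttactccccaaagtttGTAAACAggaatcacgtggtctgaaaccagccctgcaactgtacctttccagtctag
Of 24 FoxO target genes with a promoter in the table, 2 (Trim63 and Txnip) held GTAAACA. These are matches of letters and not measured sites. The RefSeq starts used for Sgk1 and Pim1 are internal, since both stretches lie within the genes as GENCODE annotates them (Sgk1 from 21882184 to 21999903, Pim1 from 29490753 to 29496112).

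Few genes of the stress responses passed. Of 24 NRF2 target genes, which defend against oxidants, 2 rose and none fell, with a median of 0.28. In 10 of 24 (41.7%) all HSD libraries were above CON, against 6.72% of all genes tested. Osgin1, an oxidative stress-induced growth inhibitor, stood at 3.50, 3.35 and 3.64 FPKM in CON and 9.83, 9.48 and 7.08 FPKM in HSD. The CON libraries were nearly equal and the HSD libraries far higher, with a log2 fold change of 1.21 ± 0.14 (SE; adjusted p = 0.00964). Gclc, the catalytic subunit of the first step of glutathione synthesis, rose with 0.68 ± 0.12 (adjusted p = 0.0368), and its partner Gclm was at 0.62 ± 0.14 (adjusted p = 0.0758, or 0.0430 with the replicate block). Nqo1 and Hmox1, the quinone reductase and the haem oxygenase, were at 0.40 ± 0.14 (adjusted p = 0.216) and 0.27 ± 0.15 (adjusted p = 0.393). With 1 library left out, between none (without CON72M) and 3 (without HS2M) genes of this list passed.

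The 25 genes of the integrated stress response, which slows translation and is carried by ATF4, had a median of 0.14, with 2 past the threshold, 5 with the block and none without any 1 of the CON libraries. Ppp1r15a (GADD34), the phosphatase subunit that ends this response, rose with 0.91 ± 0.13 (adjusted p = 0.0213), beside Slc38a2. Atf4 itself was higher in all 3 HSD libraries, at 59.0, 66.6 and 69.6 FPKM in CON and 85.8, 106 and 98.9 FPKM in HSD. Its log2 fold change was 0.57 ± 0.13 (adjusted p = 0.0792, or 0.0240 with the replicate block). Among 26 ER chaperone genes (median -0.0028) none passed, with Herpud1 and Dnajb9 at 0.39 ± 0.12 (adjusted p = 0.150) and 0.39 ± 0.12 (adjusted p = 0.170). Heat shock genes had a median of -0.22, with 25 of 29 (86.2%) lower, against 60.8% of all genes tested. None was past the threshold, or 2 with the block, and Dnajb1 was at -0.83 ± 0.19 (adjusted p = 0.0846, or 0.0310 with the replicate block). Of 28 immediate early genes (median -0.03) Pim1, Ppp1r15a and Tgif1 rose. Of 21 p53 target genes (median 0.04) Phlda3 rose with 0.65 ± 0.12 (adjusted p = 0.0496), and 2 passed with the block. Gadd45b, a stress-induced growth arrest gene outside the lists, rose with 0.82 ± 0.11 (adjusted p = 0.0196).

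In the proteasome, ribosomal protein and autophagy lists differences were small and none passed. All 31 proteasome subunits had a positive log2 fold change, against 4248 of all 10834 genes tested. Their median was 0.19, with Psmd8 and Psmd4 at 0.50 ± 0.13 (adjusted p = 0.110) and 0.46 ± 0.12 (adjusted p = 0.112). By library their median was -0.05, -0.03 and 0.08 in CON and -0.00061, 0.39 and 0.21 in HSD, so that HS2M lay within the range of CON. Of 73 cytosolic ribosomal protein genes 70 were positive, with a median of 0.21 and none with separate groups. Their median by library was -0.11, -0.03 and 0.15 in CON and -0.15, 0.51 and 0.32 in HSD, with HS2M below all CON libraries. The 41 autophagy genes had a median of 0.05 with Sqstm1 (p62), the ubiquitin-binding receptor, at 0.41 ± 0.11 (adjusted p = 0.118) and higher in all 3 HSD libraries.

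**Figure D4:**
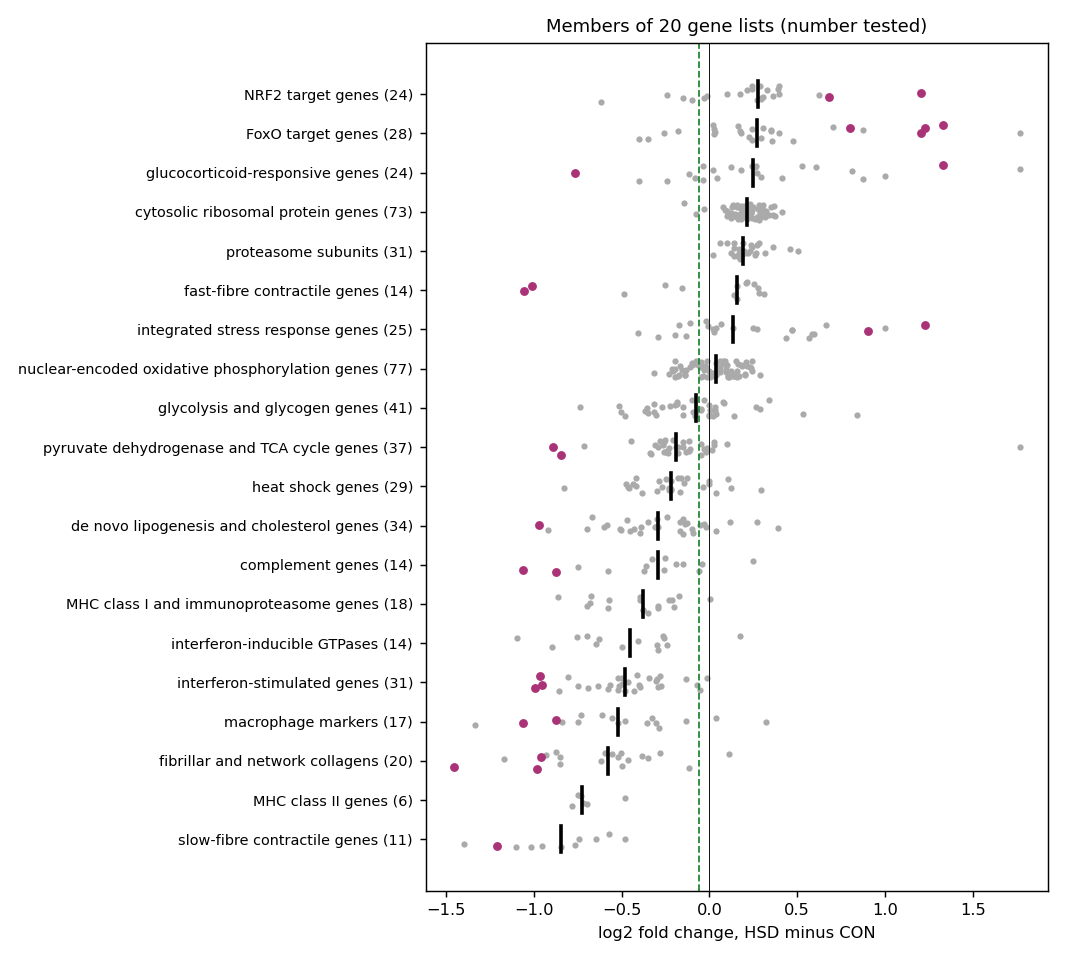
Log2 fold changes (HSD minus CON) of the tested members of 20 gene lists, with the number tested in brackets. Purple points passed the adjusted p, grey points did not, black bars are list medians, and the dashed green line is the median of all 10834 genes (-0.06). Slow-fibre, collagen, macrophage, MHC and interferon lists lie to the left, and NRF2, FoxO, ribosomal protein and proteasome lists to the right.

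Collagen genes were lower in HSD. Of 20 fibrillar and network collagens, 19 (95%) had a negative log2 fold change, whereas 60.8% of the tested genes did. The median was -0.58. The groups were separate, with HSD lower, in 16 of the 20 collagens (80%), whereas 15.6% of the tested genes showed this. Col3a1, a fibril-forming collagen of soft tissue (chromosome 1, 45311538 to 45349706), had 28.9, 17.6 and 26.6 FPKM in CON and 9.40, 7.04 and 8.87 FPKM in HSD. Its mean was 2.89 times lower in HSD and the groups were separate, with a log2 fold change of -1.46 ± 0.19 (SE; adjusted p = 0.0160). Col15a1, a basement membrane collagen of muscle and vessels, and Col6a2, a microfibril collagen around fibres, fell with -0.96 ± 0.14 (adjusted p = 0.0227) and -0.98 ± 0.17 (adjusted p = 0.0430). Col1a1 and Col1a2, the chains of type I collagen, were at -1.17 ± 0.23 (adjusted p = 0.0549, or 0.00273 with the replicate block) and -0.85 ± 0.17 (adjusted p = 0.0522, or 0.0140 with the replicate block). With the block 9 collagens passed in place of 3, without HS2M 9, and without CON16M, CON72M, HS3M or HS5M none. The sum over the list was 185, 139.7 and 153 FPKM in CON and 99.9, 72.5 and 91.7 FPKM in HSD (exact p = 0.1, the smallest possible).

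Other matrix genes differed by less. Of 43 collagen processing and other matrix genes 38 (88.4%) were negative, against 60.8% of all genes tested, with a median of -0.24. None was past the threshold, and Pcolce and Postn were at -0.59 ± 0.12 (adjusted p = 0.0712, or 0.0481 with the replicate block) and -1.21 ± 0.29 (adjusted p = 0.0936). The 28 matrix-degrading enzymes and inhibitors had a median of -0.26, with Htra4 the only gene past the threshold. Secreted factors that fell included Angptl2, an angiopoietin-like protein, C1qtnf3 (CTRP3), an adiponectin paralog, and Frzb, a secreted Wnt inhibitor. Angptl2 had 12.1, 9.04 and 10.6 FPKM in CON and 3.51, 4.37 and 5.32 FPKM in HSD, lower in all HSD libraries, with a log2 fold change of -1.18 ± 0.16 (SE; adjusted p = 0.0193). C1qtnf3 was rare, with 3 to 53 fragments in a library, at 1.56, 0.792 and 1.71 FPKM in CON and 0.353, 0.301 and 0.0946 FPKM in HSD, and separate groups, with a log2 fold change of -1.29 ± 0.23 (SE; adjusted p = 0.0444). Frzb had 3.94, 3.57 and 3.15 FPKM in CON and 1.46, 1.31 and 1.12 FPKM in HSD, all HSD below all CON, with a log2 fold change of -1.17 ± 0.14 (SE; adjusted p = 0.00934).

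**Figure D5:**
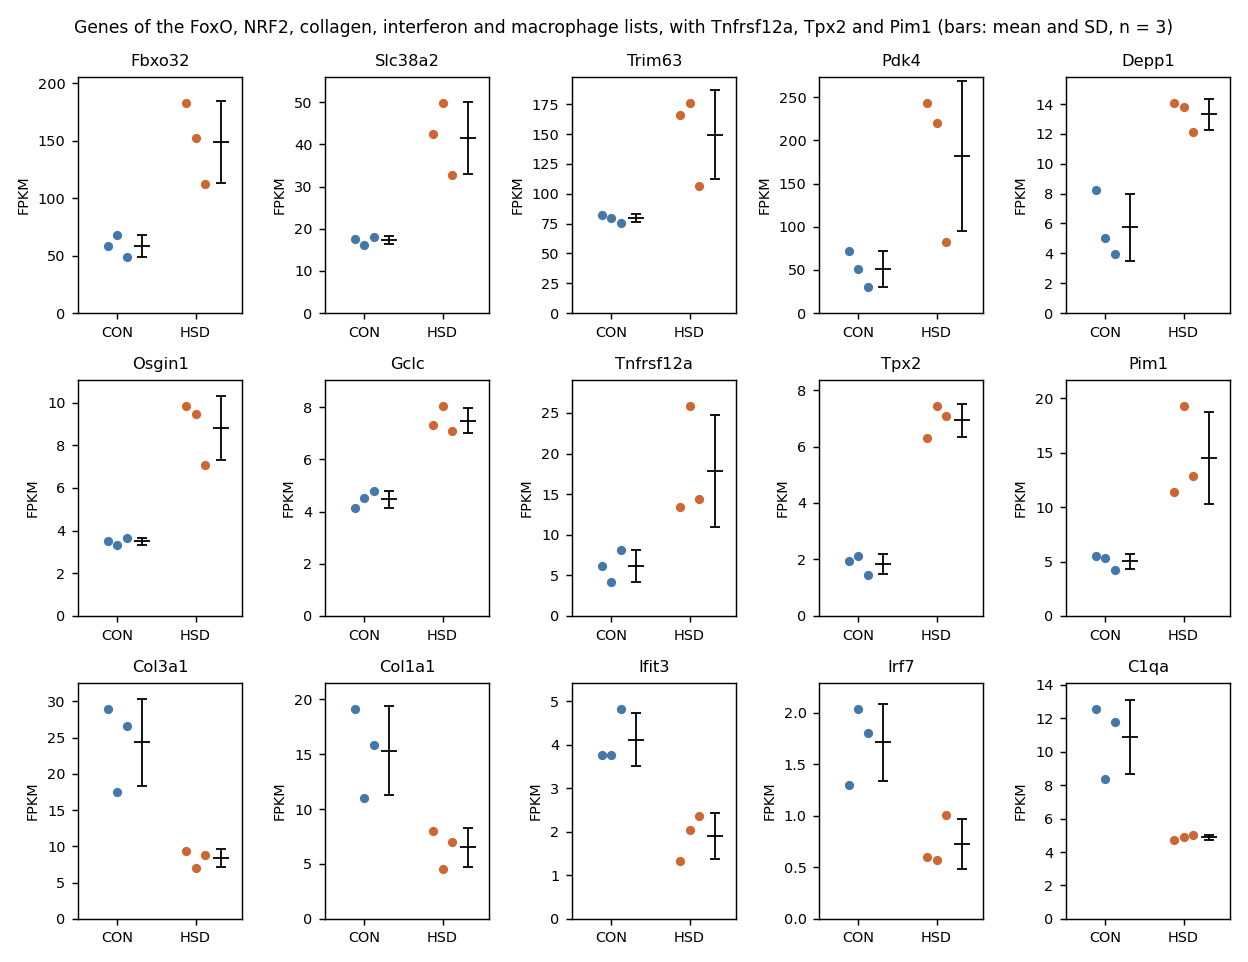
FPKM of 15 genes in each CON and HSD library, with bars at the mean and SD of 3 libraries. The top row holds FoxO target genes, the middle row NRF2 targets with Tnfrsf12a, Tpx2 and Pim1, and the bottom row collagen, interferon and macrophage genes. HSD libraries are above CON in the upper rows and below CON in the lowest row, and HS5M is the lowest HSD library for Fbxo32, Slc38a2, Trim63 and Pdk4.

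Interferon-stimulated genes were lower in HSD. All 31 tested had a negative log2 fold change, against 60.8% of all genes tested, with a median of -0.48. Downward separation, present in 15.6% of the tested genes, was found in 18 of the 31 (58.1%). The summed FPKM of the list overlapped between the diets, at 88.9, 126 and 103 FPKM in CON and 53.5, 91.1 and 85.9 FPKM in HSD (exact p = 0.2). Ifit3, an antiviral RNA-binding protein of this family, had 3.76, 3.77 and 4.82 FPKM in CON and 1.33, 2.03 and 2.36 FPKM in HSD. All HSD libraries were below CON, with a log2 fold change of -0.96 ± 0.18 (SE; adjusted p = 0.0452). Its neighbour Ifit3b and Rtp4, another interferon-induced gene, fell with -0.96 ± 0.18 (adjusted p = 0.0452) and -1.0 ± 0.19 (adjusted p = 0.0490). Reads of Ifit3 and Ifit3b, which are near-identical copies, may be split between them, and none of the 3 genes was covered by more than 102 fragments in a library. Irf7, the factor that amplifies interferon responses, was at 1.30, 2.03 and 1.80 FPKM in CON and 0.597, 0.571 and 1.0 FPKM in HSD. The HSD libraries were all lower, with -0.86 ± 0.19 (adjusted p = 0.0758, or 0.0403 with the replicate block). With the block 5 genes passed in place of 3, and without CON16M, CON71M, CON72M or HS3M none. By library the list median was -0.16, 0.18 and 0.01 in CON and -0.73, -0.50 and -0.26 in HSD, and HS5M was nearest to CON.

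The interferon-stimulated response element, to which STAT and IRF factors bind after interferon, was searched as GAAANNGAAA on both strands, because all 31 interferon-stimulated genes had a negative value. It was in 2.98% of promoters, and in 8 of the 23 interferon-stimulated genes that have a promoter in the table. Capitals mark it. Ifit3 (chr19:34583323-34583466, plus strand) and Ifit3b share all 144 bases of the stretch, so 1 is shown, beside Ifit1 (chr19:34640735-34640863, plus strand) and Isg15 (chr4:156200825-156200946, minus strand), where overlapping matches run together. Ifit1 and Isg15 did not pass the adjusted p.
Ifit3: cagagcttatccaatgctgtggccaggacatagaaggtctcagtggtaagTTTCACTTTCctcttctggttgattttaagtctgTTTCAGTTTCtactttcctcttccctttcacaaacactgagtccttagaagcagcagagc
Ifit1: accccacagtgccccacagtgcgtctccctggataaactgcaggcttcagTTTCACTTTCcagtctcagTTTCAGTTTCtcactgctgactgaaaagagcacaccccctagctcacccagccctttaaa
Isg15: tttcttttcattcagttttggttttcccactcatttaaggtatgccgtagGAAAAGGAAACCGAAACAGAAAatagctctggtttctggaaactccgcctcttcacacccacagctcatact
The same letters were also upstream of Sgk1, which fell, and of Ppp1r15a and Bmt2, which rose.

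No antigen presentation gene of the lists passed. The 6 MHC class II genes were all negative, with a median of -0.73, and H2-Aa, H2-Ab1 and H2-Eb1 were at -0.73 ± 0.15 (adjusted p = 0.0613, or 0.0332 with the replicate block), -0.79 ± 0.19 (adjusted p = 0.0906, or 0.0225 with the replicate block) and -0.75 ± 0.20 (adjusted p = 0.112, or 0.0300 with the replicate block). None passed, and 4 did with the block. Nlrc5, the activator of MHC class I genes, was at -0.68 ± 0.18 (adjusted p = 0.110). Of 18 MHC class I and immunoproteasome genes 17 were negative, with a median of -0.38, but in only 2 (11.1%) were the groups separate. Their median by library was -0.24, 0.34 and -0.11 in CON and -0.74, -0.32 and -0.07 in HSD, so that HS5M lay above CON16M and CON72M. Of 14 interferon-inducible GTPases 13 (92.9%) were negative, with a median of -0.45. In 2 (14.3%) every HSD library was below every CON library, near the 15.6% of all genes tested. By library that median was -0.42, 0.65 and -0.18 in CON and -0.87, -0.45 and -0.33 in HSD, so that CON16M reached the HSD range, and Gbp7 was at -0.75 ± 0.21 (adjusted p = 0.120, or 0.0260 with the replicate block). H2-T24, a class I-like gene outside the lists, fell with -0.95 ± 0.14 (adjusted p = 0.0213).

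Macrophage markers had a median of -0.52 over 17 genes, of which 15 (88.2%) were negative, against 60.8% of all genes tested. C1qa, a chain of complement C1q made by macrophages, had 12.6, 8.36 and 11.8 FPKM in CON and 4.70, 4.89 and 5.04 FPKM in HSD. The HSD libraries were almost equal and below all CON libraries, with a log2 fold change of -1.07 ± 0.15 (SE; adjusted p = 0.0213). C1qb fell with -0.87 ± 0.16 (adjusted p = 0.0452). With the block 4 markers passed in place of 2, and without CON16M, CON72M, HS3M or HS5M none. Summed over the list, macrophage markers stood at 133, 96.6 and 135 FPKM in CON and 72.5, 81.1 and 70.9 FPKM in HSD (exact p = 0.1), without overlap, and fewer macrophages and less RNA per macrophage cannot be told apart. The 14 complement genes had a median of -0.29, with C1qa and C1qb again the 2 past the threshold. Of 24 cytokine and NF-kB response genes (median -0.21) Tnfrsf12a rose and Tnfaip2 fell. Tnfaip2, a TNF-induced gene of the vessel wall and myeloid cells, had 16.6, 13.1 and 15.4 FPKM in CON and 4.18, 3.32 and 5.92 FPKM in HSD. The groups were far apart, with a log2 fold change of -1.67 ± 0.19 (SE; adjusted p = 0.00911). Cd3e, a chain of the T cell receptor complex, fell with -0.92 ± 0.16 (adjusted p = 0.0368) at 13 to 53 fragments in a library. The 18 T and B cell markers summed to 3.97, 3.90 and 3.92 FPKM in CON and 1.83, 2.49 and 3.65 FPKM in HSD, and the 2 that could be tested had a median of -0.68.

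Markers of other cells were read beside these changes. Blood cell markers summed to 965, 124 and 224 FPKM in CON and 134, 174 and 127 FPKM in HSD, so that CON16M stood far above the rest while the groups overlapped (median -1.07 over 5 genes). The sums of adipocyte, fibroblast, tenocyte, endothelial, pericyte and smooth muscle, satellite cell, Schwann cell and hepatocyte markers overlapped between the diets as well, with ratios of HSD to CON between 0.766 (tenocyte) and 1.17 (hepatocyte). The fibroblast list, at 569, 515 and 436 FPKM in CON and 542, 463 and 497 FPKM in HSD, had a median log2 fold change of -0.15, while Cd248 in it fell with -0.78 ± 0.14 (adjusted p = 0.0452). In the pericyte and smooth muscle list Smtn (smoothelin) fell with -0.76 ± 0.14 (adjusted p = 0.0452). Adipocyte marker sums ran from 154 FPKM in HS2M to 381 FPKM in HS3M. Medians were -0.17 for adipocyte, -0.17 for tenocyte, -0.02 for endothelial, -0.11 for pericyte and smooth muscle, -0.19 for satellite cell, 0.09 for Schwann cell, -0.14 for hepatocyte and -0.13 for muscle fibre markers. Of all cell type markers in the table, Tcf21 alone, a fibroblast factor, was at 0 in all 6 libraries. The part of these cells, and of the blood in CON16M, in the changes of collagen, interferon and macrophage genes was not tested.

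Few genes of fuel metabolism passed. Of 37 genes of pyruvate dehydrogenase and the TCA cycle 32 (86.5%) were negative, against 60.8% of all genes tested, with a median of -0.19. Pdp1, the phosphatase that opens pyruvate dehydrogenase, fell with -0.89 ± 0.13 (adjusted p = 0.0227) while its opponent Pdk4 was higher as given above. Ogdhl, a relative of the oxoglutarate dehydrogenase, fell with -0.84 ± 0.16 (adjusted p = 0.0452) at 14 to 55 fragments. In fatty acid oxidation Mlycd, which removes the malonyl-CoA brake, rose with 0.66 ± 0.12 (adjusted p = 0.0452), and Bdh1, the ketone body dehydrogenase, fell with -0.92 ± 0.14 (adjusted p = 0.0227), over 45 genes with a median of -0.11. Scd2, a fatty acid desaturase, fell with -0.97 ± 0.13 (adjusted p = 0.0193), among 34 lipogenesis and cholesterol genes with a median of -0.30. Of the 34, 30 (88.2%) were negative, against 60.8% of all genes tested. Nmrk2, a muscle nicotinamide riboside kinase that makes NAD, had 35.5, 51.9 and 72.5 FPKM in CON and 10.7, 19.4 and 20.3 FPKM in HSD. The libraries varied within both diets, with a log2 fold change of -1.63 ± 0.29 (SE; adjusted p = 0.0414), and its exons overlap another gene over 14.6% of their length.

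No respiratory chain gene passed. The 77 nuclear-encoded genes of oxidative phosphorylation had a median of 0.04, the 13 mitochondrially encoded protein genes -0.05 and the 77 mitochondrial ribosome genes -0.02, with Mrpl19 nearest to the threshold, at -0.64 ± 0.12 (adjusted p = 0.0533, or 0.0332 with the replicate block). Ndufs1, a subunit of complex I, was at -0.31 ± 0.12 (adjusted p = 0.256). The mitochondrially encoded share of fragments was 12.3%, 16.5% and 14.5% in CON and 11.3%, 15% and 13% in HSD (exact p = 0.5). Glycolysis and glycogen genes had a median of -0.08 over 41 genes and none passed, or 3 with the block, with Gyg (glycogenin) at 0.53 ± 0.12 (adjusted p = 0.0768, or 0.0323 with the replicate block) and Pfkfb3 at -0.74 ± 0.19 (adjusted p = 0.104, or 0.0313 with the replicate block). Ppm1k, the phosphatase that switches on branched-chain keto acid breakdown, Ak4, an adenylate kinase, and Odc1, the first enzyme of polyamine synthesis, were at -0.64 ± 0.15 (adjusted p = 0.0936), -0.60 ± 0.16 (adjusted p = 0.115) and 0.64 ± 0.16 (adjusted p = 0.104). For branched-chain amino acid breakdown (24 genes, none past the threshold) the median was -0.10, for creatine and purine nucleotide genes (19, none) -0.21 and for polyamine genes (12, none) 0.07. Insulin and glucose uptake genes had a median of 0.03 with Eif4ebp1 alone past the threshold among 41, and Slc2a4 (GLUT4) and Ppargc1a were at -0.18 ± 0.12 (adjusted p = 0.488) and -0.25 ± 0.15 (adjusted p = 0.445). In the list of 23 amino acid transport and glutamine genes (median 0.001) Slc38a2 rose and Gpt (alanine transaminase) fell with -0.76 ± 0.12 (adjusted p = 0.0265).

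Single genes tied to salt and water balance fell. Aqp4, the water channel of the fast-fibre membrane, had 7.46, 7.69 and 6.90 FPKM in CON and 2.05, 2.19 and 1.66 FPKM in HSD. The libraries were close to each other within each diet and far apart between diets, with a log2 fold change of -1.68 ± 0.13 (SE; adjusted p = 0.00208). Of 16 NFAT5 and osmolyte genes (median 0.03), Aqp4 and Sgk1 fell and Slc38a2 rose, and NFAT5 (Nfat5), the factor that responds to hypertonicity, and its target Slc6a6, the taurine transporter, were at 0.09 ± 0.12 (adjusted p = 0.764) and 0.14 ± 0.18 (adjusted p = 0.746). Among 38 sodium and potassium transport genes Sgk1 alone passed, with a median of -0.03. Of 16 renin-angiotensin and natriuretic peptide genes (median -0.11) Agt (angiotensinogen) fell with -0.83 ± 0.13 (adjusted p = 0.0266).

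Signalling lists held few called genes. In TGF-beta and BMP signalling (36 genes, median -0.01) Tgif1, a repressor of SMAD signalling, rose with 1.0 ± 0.19 (adjusted p = 0.0490). In Wnt signalling (28, median -0.06) Frzb fell and Zranb1, a deubiquitinase, rose with 0.95 ± 0.14 (adjusted p = 0.0233). Igfbp5, an IGF-binding protein, fell with -0.85 ± 0.15 (adjusted p = 0.0452) among 24 IGF and growth factor genes (median -0.13). The 21 myokine genes had a median of -0.22, with Angptl2 and C1qtnf3 past the threshold, and the 16 NAD synthesis genes -0.16, with Nmrk2. Of 18 circadian clock genes (median 0.10) none passed, with Per2 and Per3 at 0.37 ± 0.13 (adjusted p = 0.203) and -0.42 ± 0.16 (adjusted p = 0.246). With the block, the genes past the threshold went from 1 to 4 in the insulin list, from 2 to 4 in the amino acid transport list, from 1 to 3 in the fibroblast list and from 1 to 2 in the sodium and potassium transport, renin-angiotensin, IGF, matrix-degrading and myogenic lists. They went from 0 to 2 in the endothelial and GTPase lists, and from 0 to 1 in the adipocyte, hepatocyte, mitochondrial ribosome and other matrix lists.

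The remaining called genes fell. Map2k6, the kinase that activates p38, had 14.5, 13.3 and 11 FPKM in CON and 5.06, 5.48 and 6.62 FPKM in HSD, separate between the diets, with a log2 fold change of -1.11 ± 0.15 (SE; adjusted p = 0.0160). Cited4, a partner of the CBP and p300 coactivators, had 20.8, 14.9 and 21.9 FPKM in CON and 6.38, 7.21 and 10.9 FPKM in HSD, lowest in HS2M, with a log2 fold change of -1.2 ± 0.21 (SE; adjusted p = 0.0394). Slc41a3, a magnesium carrier, had 39.1, 36.1 and 39.6 FPKM in CON and 17.4, 18.2 and 19.9 FPKM in HSD, nearly equal within each diet, with a log2 fold change of -1.03 ± 0.11 (SE; adjusted p = 0.00911). Atcay (caytaxin), a protein best known from neurons, had 3.19, 3.38 and 3.07 FPKM in CON and 0.921, 0.732 and 1.78 FPKM in HSD, lowest in HS3M, with a log2 fold change of -1.23 ± 0.21 (SE; adjusted p = 0.0368). Pltp, the phospholipid transfer protein, had 4.65, 4.58 and 4.78 FPKM in CON and 1.52, 1.83 and 2.36 FPKM in HSD, with CON nearly constant and a log2 fold change of -1.12 ± 0.14 (SE; adjusted p = 0.0157). Fads6, a desaturase-like gene, had 3.49, 4.23 and 2.65 FPKM in CON and 1.82, 1.01 and 1.14 FPKM in HSD, with HS2M nearest to CON and a log2 fold change of -1.13 ± 0.20 (SE; adjusted p = 0.0430). Tmem25, a membrane protein of the immunoglobulin superfamily, had 4.79, 3.81 and 3.06 FPKM in CON and 1.17, 1.44 and 1.73 FPKM in HSD, without overlap and with a log2 fold change of -1.16 ± 0.17 (SE; adjusted p = 0.0227). Exons of Pltp and Atcay overlap genes on the other strand over 19.3% and 10.8% of their length.

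Of the 97 genes past the adjusted p, 46 were in no list. Beside those already given, the genes that fell with a log2 fold change above -1 were Tfrc (the transferrin receptor that takes up iron), at -0.87 ± 0.11 (adjusted p = 0.0157), Trim35, Tspan9, Nrep, Rbfox2 (a splicing factor), Gprc5c, Lgals3bp, Amigo3, Paqr7, Nrgn, Ift122, Barx2, Msto1, Sh3rf2, Gm572, Ntng2, Grtp1, Slc25a35, Itgb6, Sh3kbp1, Tm6sf1, Plcd4, Lmo7, Mpp3, Armcx3, Mmachc, Scamp2 and Stom, between -0.99 and -0.57. The genes that rose with a log2 fold change below 1 were Spns2 (a sphingosine-1-phosphate exporter), at 0.86 ± 0.15 (adjusted p = 0.0430), Inmt, Bmt2, Cldn15, Zcchc2 and Chia1. As ratios of mean FPKM, which no value was added to, several of these low genes differed by more than 2-fold, such as Chia1, 2.71 times CON, and Amigo3, 2.58 times lower in HSD. Exons of Slc25a35, Plcd4, Tm6sf1 and Msto1 overlap a gene on the other strand over 31.3%, 29.8%, 20.6% and 19.2% of their length. For Smtn and Bdh1, given above, this was 16.3% and 13.7%.

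By level, 18 of the 24 called lower genes (75%) and 5 of the 11 called higher genes had their highest CON mean in muscle among muscle, liver and fat, against 23.3% of all genes tested. Over the 97 genes the figures were 37 of 72 lower and 10 of 25 higher genes. This describes where the genes are expressed and was not tested.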

How the data were processed

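RNA of quadriceps was sequenced in 3 CON and 3 HSD libraries with a stranded total RNA kit. The authors trimmed reads, aligned them with HISAT2 to the mouse genome (mm10) and deposited FPKM per gene. The study names Cuffdiff as the source of its FPKM, whereas the labels name HTSeq 0.9.1 and list a second mouse build beside mm10. The study also speaks of a batch correction without saying which values it touched. The annotation release and the strand setting are not given in the sources used here. The table holds FPKM with no further columns, and no sample column was left out. Fragments were recovered from the FPKM steps and the summed exon length of each gene (GENCODE M21), and 97.6 to 97.7% of values came out whole within 0.02, which gave totals of 11185317 to 13311129 fragments.

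Genes with a mean of at least 0.5 FPKM were fitted with limma 3.58.1 (R 4.3.3; eBayes with a trend) after adding 0.5 and taking log2. Diet was the only term in the model, with Benjamini-Hochberg adjustment over 10834 genes. Calls needed an adjusted p under 0.05 and a log2 fold change of at least 1 in size, which are the thresholds of the study; the same adjusted p without the bound gave the second count. Single values per library were compared with a 2-sided exact permutation test. Every called gene is named, with its values per library, and lists with no gene past the adjusted p are described by members with the smallest p; the other named genes were chosen after their values were seen. The 64 gene lists and the genes described were chosen with earlier results of these data known. Of 1626 genes in the lists, 1431 were tested.

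Same-numbered CON and HSD libraries deviated together from their group means (r = 0.383, 0.177 and 0.184), and the replicate number was tried as a block. Blocked values are given beside results whose call they change, as an alternative that calls no gene. CON72M and HS3M, which carry different numbers, had r = 0.180. The labels do not say what the number marks and give no pairing of CON with HSD mice. The labels CON16M and CON16L, of muscle and liver, carry different numbers. Promoters are the 250 bases before the start in RefSeq (GRCm38.p6), which held 65 of the 97 genes past the adjusted p. Of the 10 motifs searched, only the glucocorticoid, FoxO and interferon ones are described above. The antioxidant response element (TGACNNNGC) was upstream of 3 higher and 15 lower genes past the adjusted p. It was in 14.2% of the tested genes with a promoter, and the difference was not tested. Alternatives were pseudocounts of 0.1 and 1, filters, scalings, library weights, the block, a fit with all 3 tissues, each library left out, and limma voom on the recovered fragments, which was chosen after seeing the data. The spread between libraries was larger than counting error in every pair.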

Additional observations from a re-analysis of the deposited data

Results flagged for a closer look

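For 2 of the 35 called genes every HSD library moved one way in muscle and the opposite way in epididymal fat (eWAT), and these differences were not tested. Fads6 fell in muscle, whereas in fat all 3 HSD libraries were above CON, with a log2 fold change of 1.00 in the limma fit of that tissue (adjusted p = 0.411), much of it from 1 library at 7.98 FPKM against 1.84 and 1.41 FPKM in the others. Htra4 rose in muscle, whereas in fat all 3 HSD libraries were below CON, with a log2 fold change of -0.65 (limma adjusted p = 0.374) and 1 library at 0.710 FPKM against 2.13 and 2.03 FPKM.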

How the results depend on the processing

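The 35 genes called at both thresholds became 7 without a filter on low values, 54 with the replicate block, 8 with all tissues in 1 fit and 64 with limma voom on the recovered fragments. Of the 35, all were among the 54 and 34 among the 64. With each library left out in turn the number lay between 10 and 61. The 97 genes past the adjusted p alone became 9 without a filter, 63 with median-ratio scaling, 59 with quantile normalization, 286 with the block, 261 with library weights and 12 with all tissues in 1 fit, and lay between 10 and 205 with 1 library left out. No filter brings in 16641 genes to adjust over, and a leave-out fit has 5 libraries, while the cause of the other shifts was not tested. Median-ratio scaling split the 97 as 28 higher to 35 lower, quantile normalization as 21 to 38, in place of 25 to 72. The block changed no other call of a named gene than those given with their blocked value. No named gene past the threshold changed direction under any alternative. The list medians kept their sign under all 18 alternatives in 42 of the 64 lists. In the other 22, which include cell cycle, autophagy, p53, glycolysis, insulin, oxidative phosphorylation, TGF-beta, Wnt, endothelial and hepatocyte lists, no direction can be read. Genes such as C1qtnf3 rest on 3 to 53 fragments a library.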
